A study of Mus musculus with 18 samples.

Results

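The miRNAs described here are 7 mature products of a cluster of hairpins inside an intron of Clcn5 on the mouse X chromosome: mmu-miR-532-5p, mmu-miR-532-3p, mmu-miR-500-3p, mmu-miR-501-3p, mmu-miR-362-5p, mmu-miR-362-3p and mmu-miR-188-5p (the mouse prefix is left out from here on). They were taken by name from the deposited table, in which each had 1 row, out of 1907 mature miRNAs listed, 1232 of them with any read. All 7 passed the filter on low counts that left 534 miRNAs for testing, but miR-362-3p, miR-188-5p and miR-500-3p were detected mainly in input libraries and passed through them. The cells were NIH/3T3, a line of mouse embryonic fibroblasts, either wild type (WT) or with a knockdown of Pus1, at day 3 (KD3) or day 6 (KD6). For each condition, small RNA was sequenced before (input) and after immunoprecipitation (IP) with an antibody to pseudouridine (Ψ), with 3 libraries in each of the 6 groups, lettered A to C. No source used here says that the letters mark separate cultures, so the p-values measure the spread between these libraries, which may be technical. The table holds miRNAs only, so the level of Pus1 itself was not analysed here.

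Ψ is an isomer of uridine that is made within RNA by pseudouridine synthases, of which PUS1 is one. A miRNA hairpin is cut from a longer primary transcript and then diced into a duplex, from which one arm, named 5p or 3p for its side of the hairpin, is usually kept by an Argonaute protein while the other is lost. Products of one cluster can share a primary transcript and still differ widely in how much mature miRNA accumulates. Bases 2 to 8 of the mature miRNA, the seed, lead in the pairing with target mRNAs. Clcn5, the host gene, encodes a chloride/proton exchanger of endosomes.

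The hairpins lie on the minus strand of chromosome X (GRCm38), in the order of transcription Mir532 at chrX:7248402-7248497, Mir188 at chrX:7247989-7248056, Mir362 at chrX:7241982-7242046, Mir501 at chrX:7241243-7241351 and Mir500 at chrX:7237683-7237774. Together they span 10815 bp inside Clcn5 (chrX:7153810-7319358, minus strand). In 3 of the 5 Clcn5 transcripts of the annotation all 5 hairpins fell within a single intron, and no Clcn5 exon overlapped any of them.

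RefSeq (GRCm38.p6) held the mature sequence of 6 of the 7 members, shown 5′ to 3′ with the seed in capitals because the cluster holds a pair of miRNAs with one seed, of which miR-501-3p was higher and miR-500-3p near 0 in the IP.
miR-501-3p: aAUGCACCcgggcaaggauuug
miR-500-3p: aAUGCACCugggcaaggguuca
miR-362-5p: aAUCCUUGgaaccuaggugugaau
miR-362-3p: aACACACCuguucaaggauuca
miR-532-3p: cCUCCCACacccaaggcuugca
miR-188-5p: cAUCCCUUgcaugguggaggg
miR-500-3p and miR-501-3p were alike at 18 of 22 bases, including the whole seed. Counting from 1 at the 5′ end, with the miR-500-3p base first, they differed by U9C, G18A, C21U and A22G. Each of the pair had 4 uridines, against 7 in miR-362-5p, 5 in miR-362-3p, 5 in miR-188-5p and 3 in miR-532-3p. Reads that match both members of such a pair cannot be told apart, and 47.0% of the non-zero values of the deposited table were not whole numbers. That share is of the whole table and does not measure how uncertain the split between miR-500-3p and miR-501-3p is, which is not known here.

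Depth differed between libraries. KD6 input A held 241109 mapped reads, against 3989031 to 15099781 in the other 17 libraries, and gave 1 to 3 counts for miR-532-3p, miR-362-5p, miR-362-3p and miR-188-5p. KD6 values from the fit are therefore also given without it where the text turns on them. Levels are given as CPM, counts scaled to 1000000 miRNA reads of a library after trimmed-mean (TMM) scaling, and a library with 0 counts could have held up to 3. The scaling of IP against input is itself uncertain: the median log2 ratio of all 534 miRNAs was -0.35 in WT, -0.25 in KD3 and -0.28 in KD6, and it was 0.34, 0.18 and 0.22 with KD6 input A as the reference of the scaling, an alternative chosen after the data were seen. An IP library measures what share of its reads a miRNA takes and gives no fraction of modified molecules.

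miR-532-5p was the main product before the IP, with a median of 2325 CPM over the 9 input libraries (range 1409 to 3209). miR-501-3p came next, with a median of 115 CPM (75.9 to 167). The remaining members had medians of 48.9 CPM for miR-362-5p, 21.03 for miR-532-3p, 19.5 for miR-362-3p, 12.2 for miR-188-5p and 3.55 for miR-500-3p. The ranges of miR-532-3p (8.13 to 28.3) and miR-362-3p (4.06 to 31.4) overlapped almost wholly, so their order was not resolved. Mature miRNAs are of nearly equal length, 21 to 24 bases for the 6 with a sequence, so CPM were compared between them without a length scale.

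**Figure D1:**
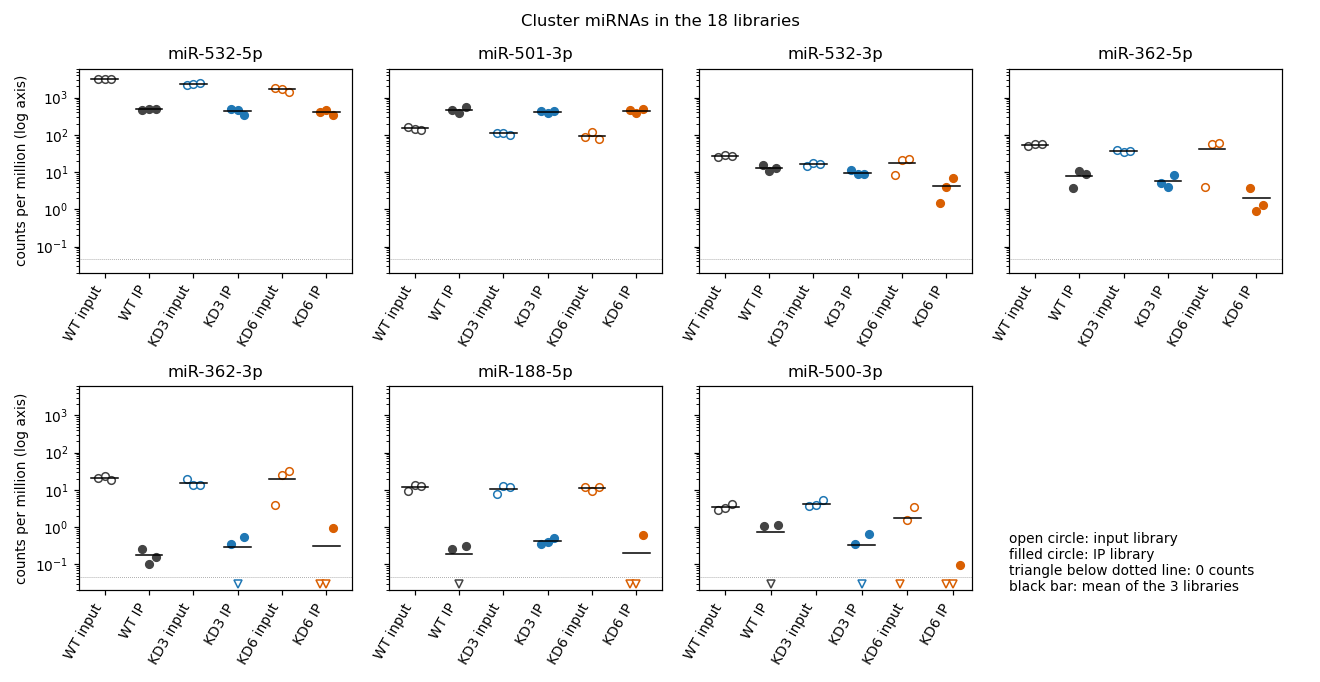
CPM (log axis) of each cluster miRNA in the 18 libraries, by group, with open circles for input, filled circles for IP and triangles below the dotted line, off scale, for 0 counts. Black bars are means of the 3 libraries, left out where the mean is below the dotted line; miR-501-3p lies higher in IP than in input in each condition, while miR-532-5p lies lower.

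The first question was which members were recovered with the antibody to Ψ. miR-501-3p rose in the IP in all 3 conditions, while miR-532-5p and miR-362-5p fell in each. miR-532-3p fell in WT and KD6 and did not pass in KD3. miR-362-3p, miR-188-5p and miR-500-3p were at a few counts or 0 in the IP and passed the filter through the input libraries alone, so lower was the only call open to them; they are given by their levels, with no p, and no support is drawn from the counts that include them. By edgeR's quasi-likelihood test (adjusted p below 0.05, Benjamini-Hochberg over 534 miRNAs), 1 of the 7 members was higher and 6 were lower in WT, where 26.2% of all tested miRNAs were higher and 40.4% lower. In KD3 the members counted 1 higher and 5 lower, against 28.1% and 39.0% of all tested, and in KD6 1 higher and 6 lower, against 31.1% and 37.6%. The split of all calls moved with the scaling: WT had 140 higher and 216 lower, KD3 had 150 and 208, and KD6 had 166 and 201, which became 221 and 162, 227 and 166, and 230 and 159 with upper-quartile factors, while KD6 had 110 and 287 with total mapped reads.

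miR-501-3p was measured at 167, 144 and 137 CPM in WT input A to C and at 466, 374 and 546 CPM in WT IP A to C. In KD3 it had 113, 115 and 99.6 CPM in input and 430, 378 and 439 CPM in IP. In KD6 it had 85.3, 118 and 75.9 CPM in input and 455, 375 and 503 CPM in IP. Every IP library lay above every input library of its condition, with no overlap. The log2 ratio was 1.63 ± 0.21 (SE, n = 3 per group) in WT, 1.93 ± 0.21 in KD3 and 2.24 ± 0.22 in KD6, with edgeR adjusted p of 9.78e-07, 1.14e-07 and 2.05e-08. Here and below, the SE of an edgeR log2 ratio was worked back from the test statistic. The spread in that statistic is estimated from all 18 libraries and shared in part across miRNAs. Without KD6 input A, the KD6 log2 ratio was 2.03. The direction and the call held in all 17 alternatives run for each condition.

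miR-532-5p showed the reverse. It had 3066, 3206 and 3209 CPM in WT input A to C and 462, 508 and 506 CPM in WT IP. KD3 gave 2140, 2325 and 2531 CPM in input and 508, 456 and 340 CPM in IP. KD6 gave 1861, 1703 and 1409 CPM in input and 412, 458 and 332 CPM in IP. The IP libraries were all lower than the inputs of their condition, and the log2 ratio was -2.68 ± 0.19, -2.42 ± 0.19 and -2.05 ± 0.19 in WT, KD3 and KD6 (edgeR adjusted p of 2.14e-10, 1.03e-09 and 8.61e-09). The KD6 value was -2.16 without KD6 input A. These calls too held in all 17 alternatives for each condition.

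With the 2 main products moving in opposite directions, the make-up of the cluster's reads changed. miR-532-5p took 92.2% ± 0.40 of the 7 members' reads (SD, n = 3) before the IP in WT and 50.6% ± 4.86 after it, while miR-501-3p went from 4.37% ± 0.55 to 47.1% ± 5.00. In KD3 miR-501-3p went from 4.35% ± 0.61 in input to 48.2% ± 5.88 in IP, and in KD6 from 5.03% ± 0.93 to 52.2% ± 7.40. Of all miRNA reads, the cluster as a whole took 0.315% ± 0.014 before the IP and 0.107% ± 0.0091 after it in WT. The same share was 0.236% ± 0.018 and 0.0925% ± 0.0085 in KD3, and 0.211% ± 0.014 and 0.0739% ± 0.0077 in KD6. The shares are descriptions and were not tested.

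**Figure D2:**
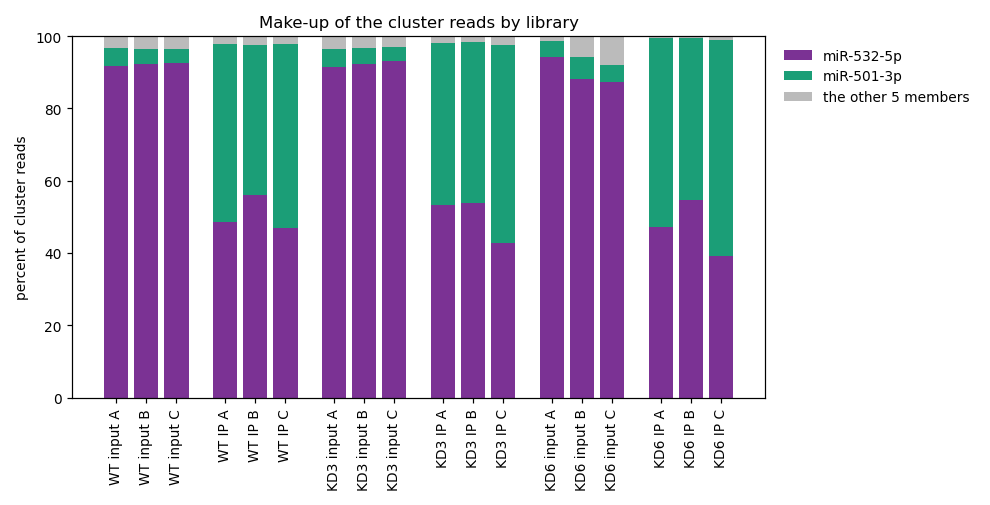
Percent of the reads of the 7 cluster miRNAs taken by miR-532-5p, by miR-501-3p and by the other 5 members, 1 bar per library. miR-501-3p takes 3.67% to 6.08% in the input libraries and 41.4% to 59.6% in the IP libraries.

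The deposited table also gives the number of distinct read sequences assigned to each miRNA, which depends on depth. miR-501-3p had 72.8 to 85.5 distinct sequences in WT input and 92.3 to 136 in WT IP. Its own estimated counts were also higher there, 1239.8 to 1503.5 in WT input and 1769.7 to 3404.8 in WT IP. Its numbers overlapped in the other conditions, with 48 to 84 in KD3 input and 56 to 128 in KD3 IP, and 5 to 54.5 in KD6 input and 51 to 110.5 in KD6 IP. miR-532-5p had 282 to 303 in WT input and 68 to 86.2 in WT IP, 223 to 277 and 48 to 76.3 in KD3, and 29 to 196 and 38 to 54 in KD6, where the range includes the shallow library. Each distinct sequence of miR-501-3p stood for 16.4 to 17.6 reads before and 18.9 to 24.98 after the IP in WT.

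miR-500-3p, which shares the seed of miR-501-3p, was low in the IP. Its CPM were 2.82, 3.29 and 4.10 in WT input A to C and 1.05, 0 and 1.12 in WT IP, where 0 counts in library B allowed up to 0.603 CPM. KD3 input had 3.67, 3.94 and 5.31 CPM and KD3 IP 0.357, 0 and 0.668. In KD6 input the values were 0, 1.61 and 3.55 CPM, and the IP libraries held 0, 0 and 0.5 estimated counts. The log2 ratio was -2.18 ± 0.66 in WT and -3.27 ± 0.76 in KD3. In KD6, miR-500-3p would be 9.54-fold lower in IP if the 3 IP libraries together held 3 counts. From summed whole-number counts (43 in input and 1 in IP, with 0.5 rounded up), the 95% exact interval began at 4.87-fold lower, counting error only. KD6 input A, also at 0, overlapped the IP libraries. Without WT input C the WT log2 ratio was -1.32, but the median of all tested miRNAs also moved, from -0.35 to 0.52.

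Both arms of Mir362 were low in the IP. miR-362-5p had 48.9, 55.7 and 56.3 CPM in WT input and 3.68, 10.9 and 8.82 in WT IP. In KD3 it had 39.6, 34.7 and 36.4 CPM in input and 5.00, 4.01 and 8.18 in IP. KD6 input gave 4.06, 56.0 and 61.6 CPM, the first from 1 count in the shallow library, and KD6 IP gave 3.66, 0.895 and 1.32. The groups did not overlap in any condition. The log2 ratio was -2.76 ± 0.43, -2.61 ± 0.45 and -4.67 ± 0.55 in WT, KD3 and KD6 (edgeR adjusted p of 1.29e-05, 3.97e-05 and 2.03e-07). The KD6 value was -5.13 when KD6 input A was left out.

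miR-362-3p had 20.6, 23.3 and 19.1 CPM in WT input and 0.263, 0.101 and 0.160 in WT IP, where the 3 libraries held 1, 0.5 and 1 estimated counts. Its input level was 19.5, 13.6 and 13.4 CPM in KD3 and 4.06, 24.5 and 31.4 CPM in KD6. KD3 IP had 0.357, 0 and 0.534 CPM and KD6 IP 0, 0 and 0.944. From summed whole-number counts, with 0.5 rounded up, it was 106-fold lower in WT IP (95% exact interval 36.0 to 514, counting error only), 45.1-fold in KD3 (17.5 to 166) and 58.4-fold in KD6 (24.8 to 181).

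miR-188-5p behaved alike, with 9.14, 13.2 and 12.8 CPM in WT input and 0.263, 0 and 0.321 in WT IP. It had 7.96, 12.5 and 11.8 CPM in KD3 input, 0.357, 0.401 and 0.501 in KD3 IP, 12.2, 9.17 and 12.2 in KD6 input and 0, 0 and 0.604 in KD6 IP. It was 59.3-fold lower in WT IP (95% exact interval 20.1 to 289), 23.8-fold in KD3 (10.1 to 73.7) and 37.9-fold in KD6 (12.8 to 186). All KD6 IP counts of both miR-362-3p and miR-188-5p came from library C. In no condition did an IP library of miR-362-3p or miR-188-5p reach the level of an input library. Reads copied by PCR and not tagged by molecule are not independent, so these intervals are too narrow by an unknown amount.

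miR-532-3p, the minor arm of Mir532, moved least in WT and KD3. It was measured at 25.03, 28.3 and 26.3 CPM in WT input and 15.7, 10.96 and 12.9 in WT IP. KD3 gave 14.4, 17.4 and 16.3 CPM in input and 11.1, 8.82 and 8.98 in IP. KD6 gave 8.13, 21.03 and 21.8 CPM in input and 1.46, 4.03 and 6.80 in IP. Its log2 ratio was -1.01 ± 0.31 in WT (edgeR adjusted p = 0.00762), -0.74 ± 0.33 in KD3 (edgeR adjusted p = 0.0531, past the threshold in 4 of 17 alternatives) and -2.17 ± 0.37 in KD6 (edgeR adjusted p = 2.96e-05), or -2.45 without KD6 input A. The WT call rested on the scaling: the log2 ratio was -0.28 with upper-quartile factors (edgeR adjusted p = 0.375), -0.32 with KD6 input A as the TMM reference (edgeR adjusted p = 0.365) and -0.30 without WT input C (edgeR adjusted p = 0.491).

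**Figure D3:**
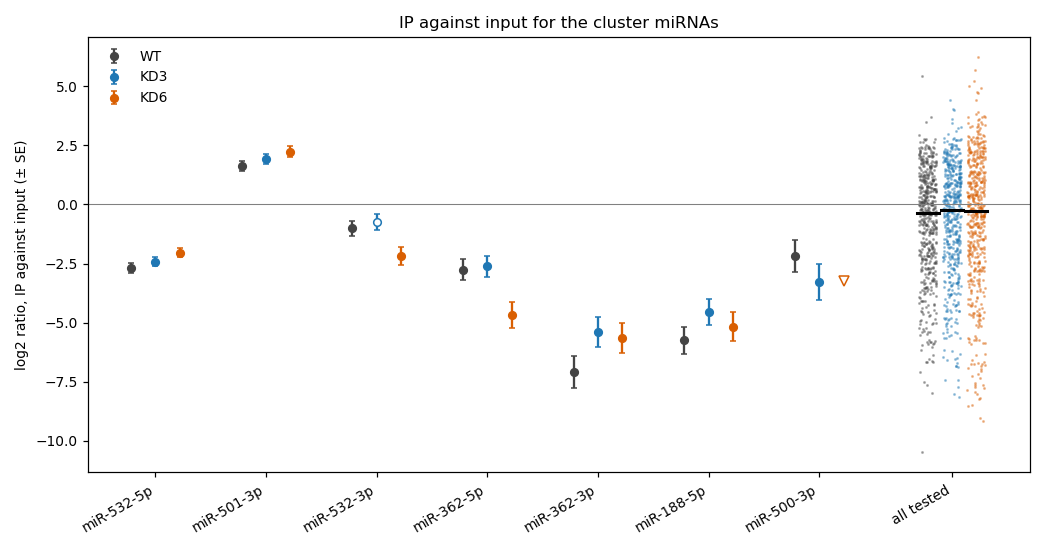
Log2 ratio of IP to input with its SE (edgeR, n = 3 libraries per group) for each cluster miRNA in WT, KD3 and KD6, filled where adjusted p is below 0.05 (for miR-362-3p, miR-188-5p and miR-500-3p lower was the only call open). The open triangle for miR-500-3p in KD6 marks the value if the IP libraries together held 3 counts (9.54-fold lower), which is not a lower limit. The right-hand column shows all 534 tested miRNAs with their medians as black bars.

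Other products of these hairpins were scarce. miR-188-3p summed to 19.5 estimated counts over the 18 libraries, miR-500-5p to 30 and miR-501-5p to 150.0, and of the 3 miR-501-5p alone passed the filter. miR-501-5p, the partner arm of miR-501-3p, had 51 counts in the WT input libraries and 4 in WT IP, a 6.98-fold lower level in IP (95% exact interval 2.56 to 26.6). In KD3 it had 65 and 2 counts, a 12.7-fold lower level in IP (3.37 to 107). In KD6 it had 25 and 3 counts, 5.55-fold lower (1.69 to 28.7). It too passed the filter through the input libraries alone, so no test of it is given.

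Ratios of 2 miRNAs within a library do not depend on how libraries are scaled, so 4 such ratios were compared between IP and input. The arms of Mir532 and of Mir362 were tested by a two-sided exact permutation test with labels permuted within each condition (8000 arrangements, smallest possible p = 0.00025, Benjamini-Hochberg over the 2 pairs). No p is given for the arms of Mir362, since miR-362-3p passed the filter through its input libraries alone. The smallest p that 3 against 3 libraries of a single condition can give is 0.1, so single conditions are given as values. The ratios of miR-501-3p to miR-500-3p and to miR-532-5p were added because of the values already seen, the first with a lower minimum of 10 mean counts in place of 20, so both are descriptions with no test.

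The log2 ratio of miR-501-3p to miR-532-5p was -4.41 ± 0.18 (SD, n = 3) in WT input, -4.42 ± 0.22 in KD3 input and -4.16 ± 0.28 in KD6 input. In the IP libraries it was -0.11 ± 0.29, -0.05 ± 0.36 and 0.15 ± 0.44, which is near equal abundance. The shift averaged 4.33 on the log2 scale and was 4.30, 4.37 and 4.31 in WT, KD3 and KD6. The 9 IP libraries lay between -0.44 and 0.60 and the 9 input libraries between -4.67 and -3.86.

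The ratio of miR-501-3p to miR-500-3p was higher in IP by 5.13 on average, going from 5.45 ± 0.40 to 9.77 ± 1.82 in WT, from 4.66 ± 0.39 to 9.91 ± 0.88 in KD3 and from 5.31 ± 0.86 to 11.12 ± 0.36 in KD6. Because miR-500-3p was at or near 0 in the IP, the size depends on the pseudocount of 0.5, and it was 3.39 with a pseudocount of 5.

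The arms of Mir532 also shifted against each other. The log2 ratio of miR-532-5p to miR-532-3p went from 6.90 ± 0.06 in WT input to 5.22 ± 0.33 in WT IP and from 7.18 ± 0.11 to 5.46 ± 0.22 in KD3, without overlap. In KD6 the input libraries had 7.52, 6.33 and 6.01 and the IP libraries 7.97, 6.75 and 5.59, which overlapped, and the difference was 0.15. Over the 3 conditions the shift was -1.08 (exact permutation p = 0.013, adjusted 0.013), and -0.93 without KD6 input A (exact permutation p = 0.0355). KD6 input A and KD6 IP A, the highest of their groups, held 2 and 4 counts of miR-532-3p.

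For Mir362 the log2 ratio of the 5p to the 3p arm rose from 1.35 ± 0.18 in WT input to 4.75 ± 1.31 in WT IP and from 1.27 ± 0.22 to 3.80 ± 0.56 in KD3. It was 0.72 ± 0.63 and 2.39 ± 1.97 in KD6, where the groups overlapped. The mean shift was 2.53 and came to 0.76 with a pseudocount of 5, since miR-362-3p had at most 5 counts in any IP library. The size of the shift thus depends on the pseudocount, and it is given as a description.

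**Figure D4:**
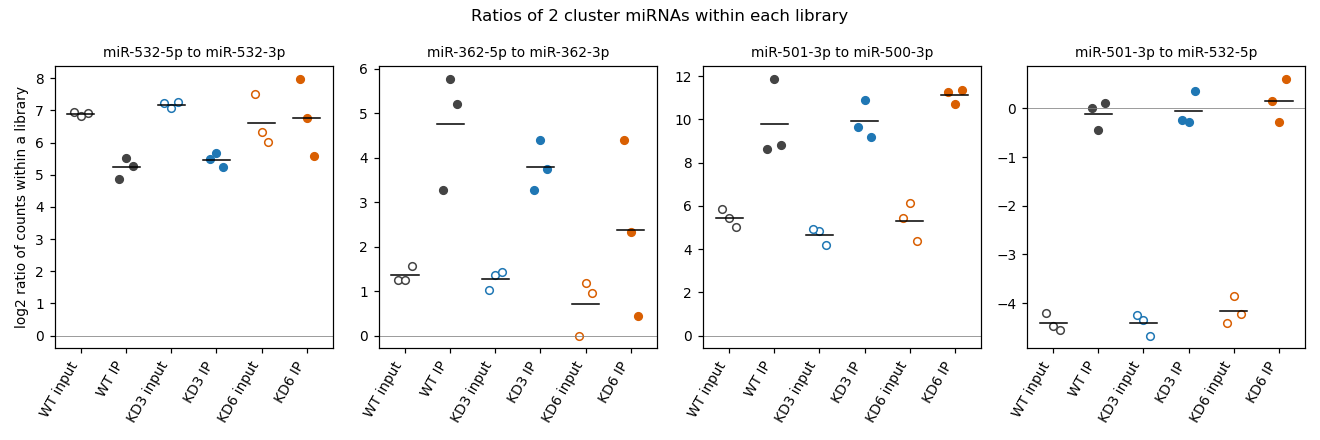
Log2 ratio of the estimated counts of 2 cluster miRNAs within each library (pseudocount 0.5), with open circles for input, filled circles for IP and black bars for means of 3 libraries. The ratio of miR-501-3p to miR-532-5p is near 0 in the IP libraries and between -4.67 and -3.86 in the input libraries.

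The second question was whether depletion of Pus1 changed the IP ratio of the members. No change in enrichment passed the test. Between KD3 and WT, 0 of the 7 members were called, against 0% of all tested miRNAs, and 0 members had an unadjusted p below 0.05 (15 of all 534 did). Between KD6 and WT, 0 of 7 were called, against 1.12% of all tested, with 4 members at an unadjusted p below 0.05 beside 110 of all 534. These 4 included miR-500-3p (-4.75 ± 2.01, SE), which held 0, 0 and 0.5 estimated counts in KD6 IP A to C. Between KD6 and KD3, 0 of 7 were called, against 0.187% of all tested, with 2 members at an unadjusted p below 0.05 beside 96 of all 534. With DESeq2 the counts of members called were 0, 0 and 1 in that order, beside 0, 39 and 32 of all 1211 miRNAs with a count after rounding. DESeq2 can leave a miRNA of low count without an adjusted p, and any such miRNA was counted as not called. The median change of all tested miRNAs was 0.14, 0.26 and 0.12 on the log2 scale.

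The log2 ratio of miR-501-3p changed by 0.61 ± 0.30 between WT and KD6 (SE, edgeR adjusted p = 0.249) and that of miR-532-5p by 0.64 ± 0.26 (edgeR adjusted p = 0.199). These were 0.43 and 0.54 without KD6 input A. Both values were below 0 when libraries were scaled by miRNA reads or by all mapped reads alone, so they have no settled sign.

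miR-362-5p and miR-532-3p had lower IP ratios in KD6 than in WT and KD3, without passing the test. These values rest on few reads: KD6 IP A to C held 10, 2 and 7 estimated counts of miR-362-5p and 4, 9 and 36 of miR-532-3p. A fit without KD6 IP C thus keeps KD6 IP libraries with 4 and 9 counts of miR-532-3p. For miR-362-5p the change was -1.91 ± 0.70 against WT (edgeR adjusted p = 0.146) and -2.05 ± 0.72 against KD3 (edgeR adjusted p = 0.137). Without KD6 input A, which held 1 count of it, the changes were -2.36 and -2.33 and passed (edgeR adjusted p = 0.0438 and 0.0363). The change of miR-532-3p was -1.16 ± 0.49 against WT (edgeR adjusted p = 0.2) and -1.43 ± 0.50 against KD3 (edgeR adjusted p = 0.137), and without KD6 IP C it was -2.18 and -2.25 (edgeR adjusted p = 0.0216 for each). Without KD6 input A it was -1.43 and -1.52 and did not pass (edgeR adjusted p = 0.132 and 0.0971). miR-362-5p also passed with no filter (-2.20 against WT and -2.27 against KD3), and with total mapped reads as library size miR-362-5p (-2.73) and miR-532-3p (-1.95) passed against WT. With DESeq2, miR-532-3p passed against KD3 (-1.35).

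The third question was whether the members changed before the IP. The input libraries pool all cells of a sample, so fewer cells holding a miRNA and less of it per cell cannot be told apart. Between KD3 and WT input, 0 of 7 members passed (edgeR), against 0% of all tested, with 3 members at an unadjusted p below 0.05 (46 of all 534) and 0 members called by DESeq2 (12 of all 1211). When the 6 libraries of that comparison were fitted alone, 3 members passed: miR-532-5p (-0.30), miR-532-3p (-0.58) and miR-362-5p (-0.39), beside 74 of all 526 tested there. Between KD6 and KD3 input, 0 of 7 passed, against 5.99% of all tested, with 1 member at an unadjusted p below 0.05 (92 of all 534) and 0 called by DESeq2 (33 of all 1211). Without KD6 input A, miR-532-5p passed there (-0.58, edgeR adjusted p = 0.0372). Between KD6 and WT input, 1 of 7 passed, against 5.06% of all tested.

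That member was miR-532-5p, which was lower in KD6 input, with a log2 ratio of -0.93 ± 0.18 (edgeR adjusted p = 0.00386) beside a median of -0.25 over all miRNAs. All 3 KD6 input libraries lay below the 3 WT input libraries. The call rested on the scaling, since the log2 ratio was -0.60 with size factors of the relative log expression type (edgeR adjusted p = 0.189), -0.61 with DESeq2 (adjusted p = 0.156) and -0.55 with upper-quartile factors (edgeR adjusted p = 0.354). It was also lost without any one of WT input A, B or C or KD6 input B or C, with log2 ratios of -0.55 to -0.37 on those fits, and kept without KD6 input A (-0.88, edgeR adjusted p = 0.00434). miR-501-3p had a log2 ratio of -0.67 ± 0.22 in the same comparison (edgeR adjusted p = 0.0859), or -0.50 without KD6 input A (edgeR adjusted p = 0.221).

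Over the 18 libraries, log2 CPM of miR-501-3p ran against those of the other 6 members (Pearson r from -0.94 with miR-188-5p to -0.56 with miR-532-3p), and the other members ran together (r from 0.69 to 0.96). These are descriptions, since the 18 points share the split into input and IP. Among 149 miRNAs outside the cluster with a mean of at least 100 CPM, those most like miR-501-3p were miR-365-2-5p (r = 0.977) and miR-320-3p (r = 0.974), with log2 IP ratios in WT of 1.60 ± 0.19 and 1.21 ± 0.20. The most like miR-532-5p were miR-24-3p (r = 0.979) and miR-542-3p (r = 0.978), at -2.07 ± 0.19 and -3.35 ± 0.20. For miR-188-5p they were miR-210-3p (r = 0.985) and miR-30a-5p (r = 0.980), at -5.04 ± 0.21 and -4.91 ± 0.18.

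The miRNAs most like miR-362-3p were miR-152-3p and miR-17-5p (r = 0.976 for each), and those most like miR-362-5p were miR-652-3p (r = 0.941) and miR-185-5p (r = 0.939). miR-652-3p (r = 0.924) and miR-34b-5p (r = 0.920) were closest to miR-500-3p, and miR-23a-3p (r = 0.940) and miR-23b-3p (r = 0.938) to miR-532-3p. The WT log2 IP ratios of these 7 miRNAs ran from -3.54 to -0.94.

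Outside the cluster, 1 tested miRNA shared a seed with a member, among miRNAs with a RefSeq sequence. miR-532-5p had no sequence there, so its seed was not searched. miR-329-3p, shown for its seed in common with miR-362-3p, reads as follows.
miR-329-3p: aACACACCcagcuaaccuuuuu
Its log2 IP ratio was 0.58 ± 0.23 in WT, 0.76 ± 0.23 in KD3 and 0.79 ± 0.25 in KD6 (edgeR adjusted p of 0.031, 0.00608 and 0.00681), although with all mapped reads as library size the KD6 value was -0.03. Counting the fit given, it passed in 14, 13 and 12 of 18 fits in WT, KD3 and KD6, and in none of the 3 conditions when no filter was used. The seed of miR-362-5p was also that of miR-500-5p, and the seed of miR-188-5p that of miR-7061-3p, both below the filter.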

How the data were processed

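Small RNA of NIH/3T3 cells was sequenced in 18 libraries, input and Ψ-IP (eluted with Ψ triphosphate) of WT, KD3 and KD6 cells. The authors mapped reads with SeqImp (version not given in the sources used here) in its mouse miRNA configuration, on mm10 and miRBase, and deposited estimated counts of mapped reads per mature miRNA and precursor (expected counts, not normalized, with fractions) and numbers of distinct read sequences, also fractional. A first line gives all mapped reads per library (241109 to 15099781) and was left out of the tests.

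From the 2045 miRNA rows, 1 row per mature miRNA was kept (that with the most reads), the estimated counts were rounded, and edgeR 4.0.16 (filterByExpr, TMM, glmQLFit and glmQLFTest, R 4.3.3) was fitted to all 18 libraries in 6 groups, with Benjamini-Hochberg adjustment over 534 miRNAs. The low library KD6 input A gives little precision (3 counts are 12.2 CPM there, against 0.256 to 1.34 elsewhere). DESeq2 1.42.0 and the other alternatives are listed with the closing section. The edgeR code, for WT IP against WT input, and the code of the exact permutation test were run on simulated data. The other comparisons and the alternatives were not. The 2 planned pair ratios used exact permutation tests and needed a mean of 20 counts, and no p is given for that of Mir362. The 2 added after the values were seen (minimum 10) were not tested.

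Every member was named, with other products of the hairpins in the table, the 2 miRNAs most like each member and tested miRNAs sharing a seed. Members and lists were chosen with earlier results of these data known. Same-letter libraries deviated together (every r over 0.1 across 197 miRNAs) for KD3 against WT input and KD6 against KD3 input, and not for the other comparisons; no other source ties the letters together. The replicate block changed no call there. Positions and sequences come from RefSeq (GRCm38.p6) and the GENCODE annotation of the same build, whose positions matched those in the table.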

Additional observations from a re-analysis of the deposited data

How the results depend on the processing

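Of 1190 alternative log2 values of single members, 72 changed sign, and 0 of the 356 for IP against input did; every value that changed sign missed the threshold both before and after. The count of members called in KD6 against WT input was 1 and fell to 0 with the test for changes beyond 2-fold, DESeq2, library size alone, no filter, only the libraries compared, RLE factors, KD6 input A as TMM reference (chosen after seeing the data), total mapped reads and upper-quartile factors, and ran from 0 to 1 with 1 library left out. For KD3 against WT input the count rose from 0 to 3 with only the libraries compared. For KD6 against KD3 input it ran from 0 to 1 with 1 library left out. The change in enrichment of KD6 against KD3 gave 1 with DESeq2 and 1 with no filter, and 0 to 1 with 1 library left out. That of KD6 against WT gave 1 with no filter, 2 with total mapped reads, and 0 to 1 with 1 library left out. The cause was not tested.

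Sign changes follow, as log2 values. Change in enrichment, KD6 against WT: scaled by miRNA reads alone and then by total mapped reads, miR-188-5p was -0.044 and -0.20, miR-501-3p -0.023 and -0.20, and miR-532-5p -0.037 and -0.22. KD6 against KD3, on the same settings: miR-501-3p was -0.26 and -0.17, and miR-532-5p -0.23 and -0.16. KD3 against WT with total mapped reads: miR-362-5p was -0.19, miR-501-3p -0.025, miR-532-3p -0.063 and miR-532-5p -0.057, and with KD6 input A as reference miR-362-5p was -0.093. In KD3 against WT input miR-188-5p was 0.073 with no filter, 0.015 with only the libraries compared, 0.021 with RLE and 0.00070 with upper-quartile factors. In KD6 against KD3 input miR-188-5p was -0.035 with upper-quartile factors, and miR-501-3p was 0.066 scaled by miRNA reads alone and 0.063 by total mapped reads. In KD6 against WT input miR-188-5p was 0.040 with DESeq2, 0.24 with library size alone, 0.18 with no filter, 0.046 with only the libraries compared, 0.034 with RLE, 0.10 with KD6 input A as reference and 0.17 with total mapped reads. miR-362-5p there was 0.18, 0.13, 0.052, 0.0031, 0.065 and 0.12 with library size alone, no filter, only the libraries compared, RLE, KD6 input A as reference and total mapped reads.

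With 1 library left out, miR-188-5p ran from -0.12 to 0.16 (KD3 against WT input), -0.045 to 0.36 (KD6 against KD3 input), -0.033 to 0.34 (KD6 against WT input) and -3.47 to 0.98 (enrichment, KD6 against WT). miR-362-3p ran from -4.82 to 0.54 (enrichment, KD6 against KD3) and -3.31 to 1.74 (KD6 against WT). miR-362-5p ran from -0.17 to 0.29 (KD6 against WT input) and -0.49 to 0.31 (enrichment, KD3 against WT). miR-500-3p ran from -1.02 to 0.11 (KD6 against WT input), miR-501-3p from -0.19 to 0.18 (KD6 against KD3 input), miR-532-3p from -0.045 to 0.26 and miR-532-5p from -0.094 to 0.18 (both enrichment, KD3 against WT).

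With the replicate block, no member's call changed. The counts of members called for IP against input were 7 in WT, 6 in KD3 and 7 in KD6, as without it. They include miR-362-3p, miR-188-5p and miR-500-3p, for which lower was the only call open, so no support is drawn from those calls. The sign of miR-188-5p in KD6 against KD3 input turned to -0.10. The 2 planned pair ratios under the block (same-letter sign flips, smallest p 0.00390625) kept their direction, with an exact p of 0.0234 for the arms of Mir532. The ratio of miR-501-3p to miR-500-3p, a description, moved from 5.13 to 3.39 with a pseudocount of 5. Counts of a few reads in the IP limit miR-362-3p, miR-188-5p, miR-500-3p and miR-501-5p. Low counts in KD6 IP also limit miR-362-5p and miR-532-3p. The shallow KD6 input A limits every KD6 input value of the low members.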
